A study of Mus musculus with 6 samples.

Results

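The cluster of miR-132 and miR-212 gives 4 mature microRNAs (miRNAs), the 5p and the 3p arm of each of its 2 hairpins. They are mmu-miR-132-3p, mmu-miR-132-5p, mmu-miR-212-3p and mmu-miR-212-5p, written here without the mouse prefix. They were taken by name from the deposited table of miRNA read counts, and all 4 were found among its 1182 features. The table covers 6 small RNA libraries of adult mouse brain cortex, 3 from males labelled as Fmr1 knockouts (KO) and 3 from males labelled wild type (WT), age-matched and untreated. The product of Fmr1 is FMRP, which binds messenger RNAs in neurons and controls their translation. The sources used here do not give the strain, the form of the deleted allele or whether animals were pooled, and miRNA counts cannot show whether Fmr1 itself was lost. The comparison of KO with WT cortex asks which miRNAs differ in level when Fmr1 is deleted.

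Both hairpins are cut from one primary transcript whose promoter is bound by CREB, a transcription factor that is switched on by calcium and cyclic AMP signalling in active neurons and by BDNF, a neurotrophin. Each hairpin is processed to a short duplex, and an arm that is loaded into an Argonaute protein guides repression of messenger RNAs, which it recognises mainly through its seed, bases 2 to 8. In neurons miR-132-3p is known to promote the growth of dendrites and spines, in part by repressing the GTPase-activating protein p250GAP. FMRP has been found in complex with miR-132 in mouse brain.

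The sequences are shown because the 3p arms share a seed and the 5p arms do not, which bears on how the arms are grouped in the results. In the mature sequences from RefSeq (GRCm38.p6, the assembly of mm10) the seed is in capitals.
miR-132-3p: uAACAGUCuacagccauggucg
miR-212-3p: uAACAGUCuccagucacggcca
miR-132-5p: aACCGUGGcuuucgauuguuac
miR-212-5p: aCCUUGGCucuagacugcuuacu
The 3p arms were identical at 17 of 22 positions. Counted from the 5′ end, with the base of miR-132-3p first, they differed by A10C, C14U, U17C, U20C and G22A. Among 1679 mature mouse miRNAs in the RefSeq table, no other carried the seed AACAGUC, and none shared the seed of either 5p arm. How many mismatches the counting allowed is not known, so reads with errors at these 5 positions of the 3p arms could in principle be misplaced.

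Both hairpins lie on the plus strand of chromosome 11 in intron 1 of the noncoding gene 1700016P03Rik, which spans 75172560 to 75177633 in the GENCODE M21 annotation (GRCm38). Mir212 comes first, at chr11:75173388-75173478, and Mir132 follows after 203 bases, at chr11:75173682-75173747. In the hairpins below the mature arms are in capitals, the 5p arm to the left.
Mir212: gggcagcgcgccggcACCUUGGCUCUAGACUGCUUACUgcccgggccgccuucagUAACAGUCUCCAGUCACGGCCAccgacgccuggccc
Mir132: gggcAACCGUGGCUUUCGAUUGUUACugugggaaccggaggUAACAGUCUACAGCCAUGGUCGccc
The Mir212 hairpin has 91 bases with 69.2% G and C, and the Mir132 hairpin 66 bases with 57.6%. The mature arms are closer to each other, at 22 or 23 bases and between 45.5% (miR-132-5p) and 54.5% (miR-212-3p) G and C.

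Summed over all names in the table, the read counts of a library came to between 11182888 and 15733876. Levels are given as CPM, read counts brought to a common library total with scaling factors from TMM. Some names had near-equal levels in every library, such as miR-9-5p and miR-9b-3p at 207997 and 207373 CPM in WT replicate 1. Their reads appear to be counted under more than 1 name. The sums can therefore exceed the number of reads, and such names are not separate cases in shares over all miRNAs. The KO libraries stood further apart than the WT libraries over the whole table. The median distance of a miRNA from its WT mean was 0.276, 0.241 and 0.430 log2 units in KO replicates 1, 2 and 3, against 0.0762 to 0.0998 in the WT libraries, and KO replicate 3 lay farthest. Each WT library is part of that mean, which shortens its own distance, and any genotype difference adds to the KO distances. Of 541 miRNAs with enough reads to be tested, 452 (83.5%) had a larger SD of log2 CPM in KO than in WT. All 32 markers in 8 lists of cell types and regions were present in the table. Each KO library fell outside the range of the WT libraries for the summed level of 6 of the 8 lists. The share of all tested miRNAs for which a KO library did so was not computed. The count is therefore not a result about the markers. In KO replicate 3 the 5 choroid plexus and multiciliated markers summed to 2094 CPM, against 960 to 1029 CPM for WT. The 5 epithelial and olfactory markers summed to 15.7 to 970.1 CPM for KO and to 83.9 to 290.0 CPM for WT, and the 4 neuronal markers to 281105 to 423346 CPM for KO and to 309655 to 340272 CPM for WT. Most of the neuronal sum was miR-9-5p and miR-128-3p. In KO replicate 2, where it was highest, miR-9-5p (316124 CPM) was above every WT library and miR-128-3p (105751 CPM) within their range. There miR-124-3p (1297 CPM) and miR-138-5p (173.5 CPM) were below every WT library, so the markers did not move together. The part of these differences in the results below was not tested. In bulk tissue, fewer cells of a type and less RNA per cell cannot be told apart.

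The 4 arms kept the same order of level in all 6 libraries, with miR-132-5p highest, then miR-132-3p, miR-212-5p and miR-212-3p. Their lengths are nearly equal, so reads are compared without a length term. The best and worst rank among all features of a library were 37 and 40 for miR-132-5p, 45 and 57 for miR-132-3p, 80 and 117 for miR-212-5p, and 159 and 219 for miR-212-3p. Reads of miR-132-5p were 1.57 to 2.86 times those of miR-132-3p, and reads of miR-132-3p 2.15 to 9.27 times those of miR-212-5p. Reads of miR-212-5p were 2.22 to 13.6 times those of miR-212-3p. Both hairpins thus gave more reads from the 5p arm than from the 3p arm, which carries the shared seed, in every library. In the order of mean CPM over the 6 libraries, miR-132-3p at 1209 ± 228 CPM (SD, n = 6) stood between miR-300-3p at 1219 ± 247 CPM and miR-181b-5p at 1185 ± 250 CPM. The place of miR-132-5p, at 2499 ± 215 CPM, was between miR-30e-5p at 2853 ± 513 CPM and miR-30c-5p at 2266 ± 606 CPM. The level of miR-212-5p, 405.5 ± 119 CPM, lay beside miR-770-3p at 411.0 ± 80.7 CPM and miR-30e-3p at 405.4 ± 88.0 CPM, and that of miR-212-3p, 45.7 ± 16.8 CPM, beside miR-137-3p at 47.5 ± 10.4 CPM and miR-486a-3p at 45.2 ± 5.79 CPM. These means pool both genotypes, and the order was not the same in the WT libraries alone. There miR-300-3p (1432 ± 43.9 CPM) and miR-181b-5p (1397 ± 44.7 CPM) both stood above miR-132-3p (1197 ± 9.30 CPM), and miR-30c-5p (2545 ± 60.6 CPM) stood above miR-132-5p (2313 ± 28.4 CPM). The WT level of miR-212-5p (461.3 ± 18.03 CPM) was above that of miR-770-3p (405.4 ± 39.4 CPM), and that of miR-212-3p (41.8 ± 1.28 CPM) was below that of miR-486a-3p (44.7 ± 1.52 CPM) (SD, n = 3 each).

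No member passed the test between genotypes (edgeR quasi-likelihood test, Benjamini-Hochberg adjusted over 541 miRNAs, threshold 0.05). The share of all tested miRNAs that passed was 0% (0 of 541), with 35 at an unadjusted p under 0.05 (6.47%), none of them a member. DESeq2 and limma-voom also gave 0 calls. The most abundant arm, miR-132-5p, had 2729, 2762 and 2562 CPM in KO replicates 1, 2 and 3, against 2289, 2306 and 2345 CPM in the WT replicates. All 3 KO libraries lay above all 3 WT libraries on this scale. The means were 2685 ± 107 CPM for KO and 2313 ± 28.4 CPM for WT (SD, n = 3 each), a difference of 0.21 log2 units (SE 0.13, 95% interval -0.08 to 0.51, edgeR adjusted p = 0.749). Groups did not overlap for 15.7% of tested miRNAs (85 of 541), 28 of them with KO higher (5.18%) and 57 with KO lower (10.5%). The separation of miR-132-5p rested on the scaling of KO replicate 2. In the deposited TPM values, which are scaled by library totals alone, that library had 2283 TPM, within the WT range of 2266 to 2369 TPM, while KO replicates 1 and 3 had 2979 and 2780 TPM. Library totals include abundant miRNAs such as miR-9-5p. Its level was 183249, 316124 and 228893 CPM in KO replicates 1, 2 and 3 and 207997 to 226547 CPM in WT. Its part in the TPM values was not tested. The log2 difference of miR-132-5p was 0.24 with DESeq2 size factors and 0.24 with scaling without the 5 most abundant miRNAs (edgeR adjusted p = 0.717 each). With library totals alone it was 0.20 (edgeR adjusted p = 0.943).

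The seed-bearing arm miR-132-3p had 1063, 965.0 and 1632 CPM in the KO libraries, against 1208, 1193 and 1190 CPM in the WT libraries. KO replicates 1 and 2 were below every WT library and KO replicate 3 was above them all. In the deposited TPM values KO replicate 1, at 1161 TPM, fell within the WT range of 1150 to 1243 TPM, with KO replicates 2 and 3 at 797.6 and 1770 TPM. The means nearly coincided at 1220 ± 360 CPM for KO and 1197 ± 9.30 CPM for WT, a difference of 0.03 log2 units (SE 0.21, 95% interval -0.45 to 0.51, edgeR adjusted p = 0.970). This value was also the median over all 541 tested miRNAs. Without KO replicate 3 the log2 fold change was -0.22 (edgeR adjusted p = 0.296), so the sign of the edgeR estimate depended on that library. It also depended on the method, since with all libraries kept limma-voom gave -0.0127 and limma on log2(TPM + 1) gave -0.0322.

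For miR-212-3p, which carries the same seed, the KO libraries had 36.3, 33.6 and 79.2 CPM and the WT libraries 40.5, 43.1 and 41.8 CPM. The pattern was that of miR-132-3p, with KO replicates 1 and 2 below and KO replicate 3 above all WT libraries. These values rest on 399 to 961 reads per library. Means were 49.7 ± 25.6 CPM for KO and 41.8 ± 1.28 CPM for WT, a difference of 0.25 log2 units (SE 0.32, 95% interval -0.49 to 0.99, edgeR adjusted p = 0.860). Without KO replicate 3 it was -0.24 (edgeR adjusted p = 0.386).

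The other arm of that hairpin, miR-212-5p, ran the other way in KO replicate 3. Its levels were 493.7, 379.3 and 176.1 CPM in the KO libraries, against 481.6, 455.2 and 447.2 CPM in the WT libraries. KO replicate 1 was above, and KO replicates 2 and 3 below, every WT library. The mean was 349.7 ± 161 CPM for KO and 461.3 ± 18.03 CPM for WT, a difference of -0.40 log2 units (SE 0.33, 95% interval -1.16 to 0.36, edgeR adjusted p = 0.791). Without KO replicate 3 the log2 fold change was -0.07 (edgeR adjusted p = 0.824). The 4 members did not share a direction, with the estimate for miR-212-5p lower and those for the other 3 higher in KO, although miR-132-3p was lower with limma-voom, with limma on the deposited TPM values and without KO replicate 3, and miR-212-3p was lower without KO replicate 3. Over all tested miRNAs 284 were higher and 257 lower.

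**Figure D1:**
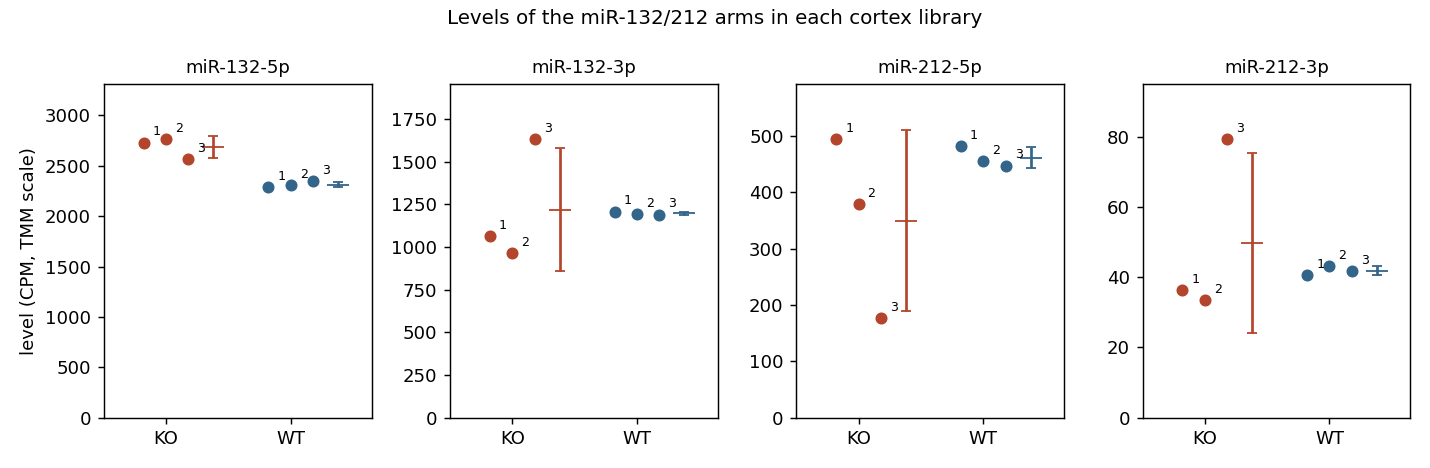
Each panel shows the level of 1 arm in CPM (vertical axis from 0) in the KO and WT libraries, with points numbered by replicate and the mean ± SD (n = 3) to the right of each group. WT libraries of each arm sit close together, while KO replicate 3 is the highest KO library for miR-132-3p (1632 CPM) and miR-212-3p (79.2 CPM) and the lowest for miR-212-5p (176.1 CPM).

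The use of the hairpin arms can be read within a library, where no scaling is needed. For miR-132 the 3p arm took 28.04% (95% Wilson interval 27.7 to 28.4), 25.9% (25.5 to 26.3) and 38.9% (38.5 to 39.3) of the hairpin's reads in KO replicates 1, 2 and 3. In WT replicates 1, 2 and 3 it took 34.5% (34.1 to 34.9), 34.1% (33.7 to 34.5) and 33.7% (33.3 to 34.1). The KO libraries lay on both sides of the WT libraries and farther from them than counting error. For miR-212 the 3p arm took 6.85% (6.31 to 7.43), 8.13% (7.40 to 8.93) and 31.0% (29.4 to 32.7) of reads in the KO libraries. The WT shares were 7.76% (7.19 to 8.36), 8.64% (7.997 to 9.34) and 8.54% (7.93 to 9.20). Here KO replicate 2 fell within the range of the WT libraries and KO replicate 1 below it, while KO replicate 3 stood far above every other library. These intervals cover counting error alone, since reads are not unique molecules.

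**Figure D2:**
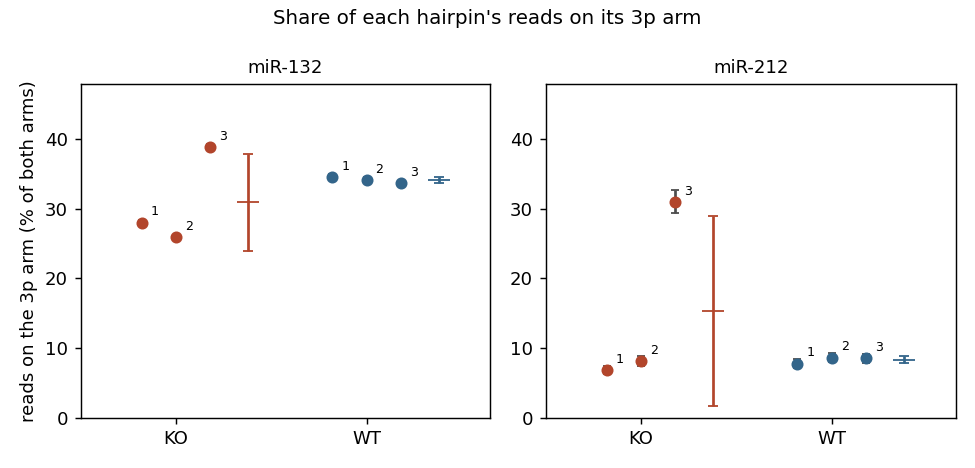
The vertical axis is the percent of a hairpin's reads that fell on its 3p arm, for miR-132 (left) and miR-212 (right), in KO and WT libraries numbered by replicate, with 95% Wilson intervals on the points (mostly smaller than the points) and mean ± SD (n = 3) to the right of each group. For miR-212, KO replicate 3 reached 31.0%, and the other 5 libraries lay between 6.85% and 8.64%.

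Neither arm ratio passed the test between genotypes. The log2 ratio of 3p to 5p reads was fitted in limma for all 144 hairpins with both arms tested, of which 0% passed at an adjusted p under 0.05 (16 at an unadjusted p under 0.05, 11.1%, neither member hairpin among them). In edgeR, with the reads of the 5p arm as offset, there were also 0 calls. For miR-132 the 3p share averaged 30.9% ± 6.98 for KO and 34.1% ± 0.432 for WT (SD, n = 3 each), and the log2 ratio differed by -0.23 (SE 0.30, 95% interval -0.92 to 0.47, limma adjusted p = 0.850). For miR-212 the share averaged 15.3% ± 13.6 in KO and 8.31% ± 0.485 in WT, and the log2 ratio differed by 0.66 (SE 0.66, 95% interval -0.89 to 2.20, limma adjusted p = 0.850). Without KO replicate 3 the differences were -0.49 for miR-132 (limma adjusted p = 0.229) and -0.17 for miR-212 (limma adjusted p = 0.681). Arm ratios of KO and WT libraries did not overlap for 16.7% of the hairpins (24 of 144), and for both members they overlapped. Some hairpin names have an arm with the same counts, such as miR-338-3p and miR-3065-5p, so the 144 are not all separate cases.

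KO replicate 3 departed from the WT libraries in the arm ratios of many hairpins, and miR-212 was among those it moved most. In that library the log2 ratio of miR-212 was 2.31 above its WT mean, the second highest value of 144 hairpins. The median distance from the WT mean, regardless of sign, was 0.635 there, against 0.413 and 0.328 in KO replicates 1 and 2 and 0.121 to 0.138 in the WT libraries. The WT distances are shortened here too, since each WT library is part of that mean. The hairpin above miR-212, let-7g, had at most 64 reads on its 3p arm. Of the 70 hairpins with a mean of at least 100 reads on each arm, miR-212 had the highest departure in either direction. The shift went both ways over hairpins, with 20 of 144 more than 1 log2 unit above and 24 more than 1 unit below the WT mean, and the median departure was -0.09. By contrast, miR-132 in the same library was 0.30 above its WT mean and ranked 51 of 144. In KO replicates 1 and 2 miR-132 lay 0.41 and 0.57 below its WT mean, and miR-212 0.30 and 0.03 below. These departures are descriptions of single libraries.

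**Figure D3:**
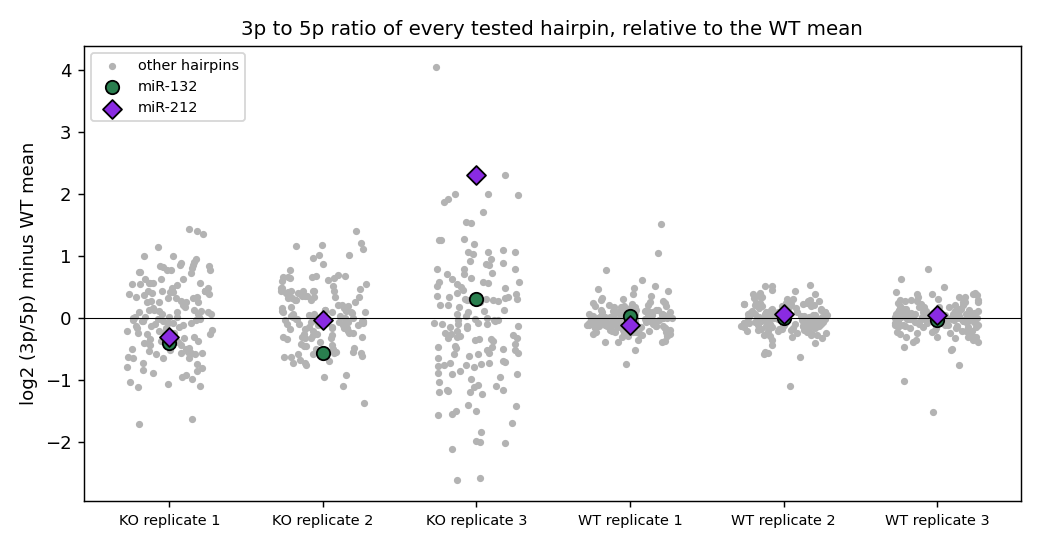
The vertical axis is the log2 ratio of 3p to 5p reads minus the mean of that ratio in the WT libraries, for 144 hairpins in each of the 6 libraries, with miR-132 as circles, miR-212 as diamonds and other hairpins as grey points spread sideways at random. In KO replicate 3 the grey points spread widest and miR-212 stands at 2.31, next to the top.

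The hairpins were also compared with each other, arm by arm. The ratio of miR-132-5p to miR-212-5p reads was 5.53, 7.28 and 14.6 in the KO libraries and 4.75, 5.07 and 5.24 in the WT libraries. All KO ratios were above all WT ratios, and such a separation was seen for 15.6% of all pairs of tested 5p miRNAs (5099 of 32640). The ratio averaged 9.12 ± 4.79 in KO and 5.02 ± 0.248 in WT. For the 3p arms the ratio of miR-132-3p to miR-212-3p reads was 29.3, 28.8 and 20.6 in the KO libraries and 29.8, 27.7 and 28.5 in the WT libraries. Here KO replicates 1 and 2 fell within the WT range and KO replicate 3 was lowest, so the groups overlapped. Among all pairs of tested 3p miRNAs 11.8% did not overlap (3805 of 32131). No test was made of these ratios, since both miRNAs were chosen together, or of the difference between the arms.

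Arms with the seed AACAGUC, which can recognise the same seed matches, summed to 1100, 998.6 and 1711 CPM in the KO libraries, against 1248, 1236 and 1232 CPM in the WT libraries. The mean was 1270 ± 385 CPM for KO and 1239 ± 8.35 CPM for WT. Nearly all of it was miR-132-3p, since miR-212-3p made up 3.30%, 3.36% and 4.63% of these reads in the KO libraries and 3.24% to 3.48% in WT. Both arms of miR-132 summed to 3792, 3727 and 4194 CPM in the KO libraries, against 3497, 3500 and 3535 CPM in the WT libraries. The groups did not overlap, as for 19.4% of hairpins (28 of 144), but by deposited TPM they did, at 4140, 3081 and 4550 TPM in KO and 3416 to 3599 TPM in WT. Summed over all 4 arms, the cluster had 4323, 4140 and 4449 CPM for KO and 4019, 3998 and 4024 CPM for WT. Most of this sum was miR-132-5p, whose own groups did not overlap in CPM. How often such sums of 4 arms do not overlap over other miRNAs was not computed. The summed KO values were higher in CPM, but in the deposited TPM values KO replicate 2 was the lowest of all libraries, at 3422 TPM against 3889 to 4136 TPM in WT and 4719 and 4827 TPM in KO replicates 1 and 3. The direction of the summed level in KO replicate 2 therefore depended on whether TMM or library totals were used, and other scalings were not compared for this sum.

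**Figure D4:**
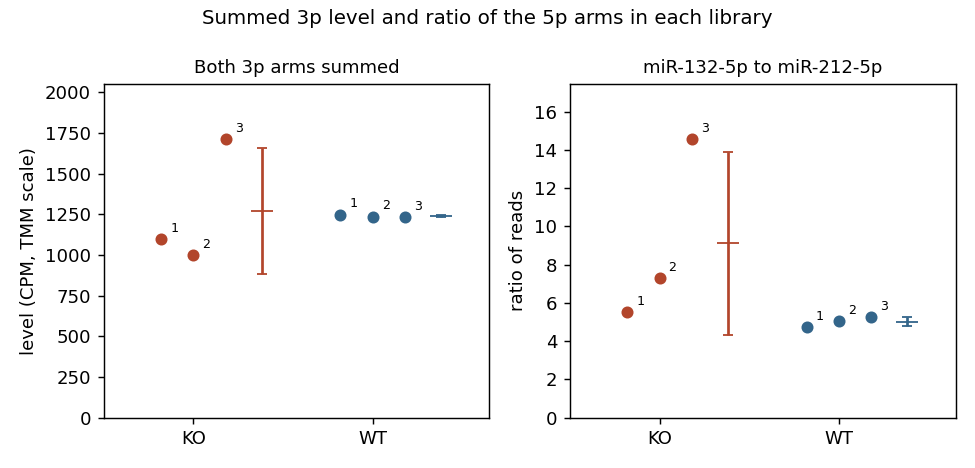
The left panel shows the summed level of miR-132-3p and miR-212-3p in CPM and the right panel the ratio of miR-132-5p to miR-212-5p reads, in KO and WT libraries numbered by replicate, with mean ± SD (n = 3) to the right of each group. KO libraries lie on both sides of WT on the left (998.6 to 1711 CPM) and above WT on the right (5.53 to 14.6).

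The members differed in which miRNAs they resembled over the 6 libraries. Likeness was measured as the root mean square difference of log2 CPM after each miRNA was centred on its own mean, so that a small value means a like course over libraries at any level. For miR-132-3p the nearest were let-7e-5p (0.070 log2 units), miR-652-3p (0.091) and miR-425-3p (0.091), where the median over all others was 0.370. For miR-212-3p they were miR-380-3p (0.089), miR-193b-5p (0.1004) and miR-16-5p (0.103), against a median of 0.494. The level of let-7e-5p was 644.7, 600.7 and 908.4 CPM in the KO libraries, against 789.9, 720.6 and 743.7 CPM in the WT libraries, highest in KO replicate 3 as for miR-132-3p. For miR-212-5p the nearest were miR-323-3p (0.089), miR-409-3p (0.138) and miR-503-3p (0.139), against a median of 0.528. The level of miR-323-3p was 146.8, 118.4 and 45.3 CPM for KO and 142.2, 140.5 and 133.4 CPM for WT, lowest in KO replicate 3. For miR-132-5p they were miR-582-3p (0.057), miR-3074-5p and miR-24-3p (both 0.083), against a median of 0.317. The last pair have near-equal counts and are not separate cases. Between members, the 3p arms were 0.180 apart, and the arms of 1 hairpin were 0.290 (miR-132) and 0.890 (miR-212) apart. The 3p arms of different hairpins were thus closer in course than both arms of either hairpin. This did not hold for the 5p arms, which were 0.556 apart, more than the median of either to all others. In KO replicate 3 miR-212-5p was -1.39 and miR-212-3p 0.92 log2 units from the WT mean. Likeness was not computed without that library.

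Other miRNAs known to respond to neuronal activity were counted for comparison, from a list of 12 taken from general knowledge. Of these, 11 had enough reads, 7 were higher and 4 lower in KO, and 0 passed the test (edgeR, all miRNAs). Their median log2 fold change was 0.17, beside 0.03 over all tested miRNAs. Of the 7 that were higher, 3 (miR-182-5p, miR-183-5p and miR-96-5p) come from the miR-183 cluster and were lowest in KO replicate 1. The other 8 split into 4 higher and 4 lower, with a median of -0.017, a split made after the values were seen. Groups did not overlap for 2 of the 11, beside 15.7% of all tested miRNAs. These were miR-381-3p, which is driven by the activity-dependent factor Mef2, and miR-191-5p. The level of miR-381-3p was 2759, 3136 and 3555 CPM for KO and 4041, 4309 and 4103 CPM for WT (log2 difference -0.40, SE 0.15, edgeR adjusted p = 0.705). All KO libraries were below all WT libraries. The level of miR-191-5p was 768.4, 718.1 and 744.0 CPM for KO and 969.0, 1006 and 1064 CPM for WT (log2 difference -0.45, SE 0.14, edgeR adjusted p = 0.694). In the same list miR-182-5p, of the light-responsive miR-183 cluster, had 28.2, 631.1 and 557.3 CPM for KO and 92.4, 47.0 and 218.2 CPM for WT (log2 difference 1.77, SE 1.19, edgeR adjusted p = 0.769). Its KO libraries lay on both sides of WT, and their order was not that of any arm of miR-132 or miR-212. The 5 epithelial and olfactory markers moved with it, at summed levels of 15.7, 904.2 and 970.1 CPM for KO and 154.2, 83.9 and 290.0 CPM for WT, and all 5 had reads in the table. Their part in the values of the miR-183 cluster was not tested. The synaptic miR-138-5p had 171.2, 173.5 and 360.5 CPM for KO and 207.8, 247.1 and 230.1 CPM for WT (log2 difference 0.04, SE 0.30, edgeR adjusted p = 0.970). Like the 3p arms of the cluster, it was below every WT library in KO replicates 1 and 2 and above them in KO replicate 3. The same held for let-7e-5p, which is not in the list. The share of all tested miRNAs with this order was not computed.

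**Figure D5:**
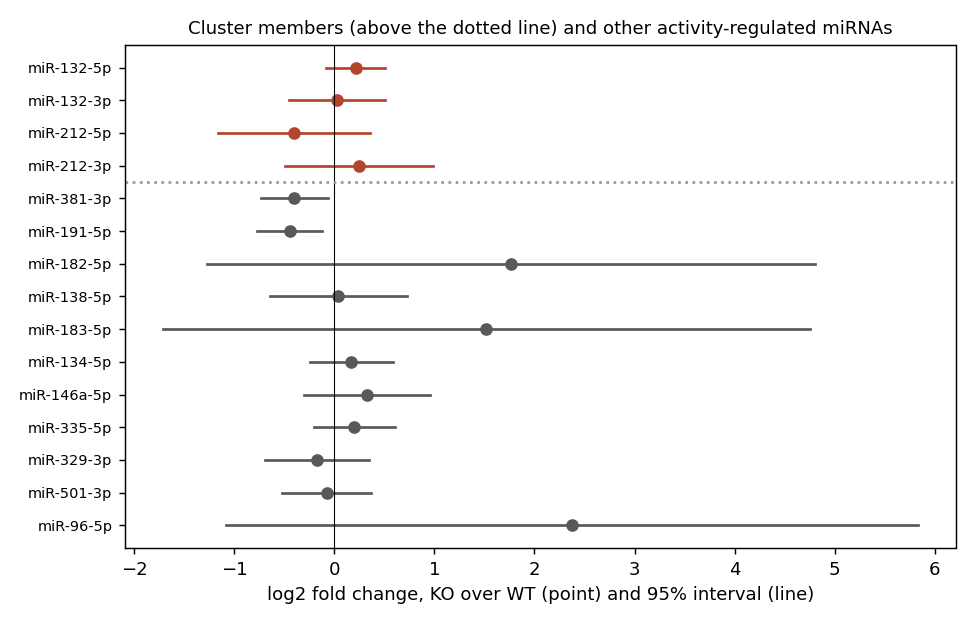
The horizontal axis is the log2 fold change of KO over WT from edgeR, with points for the estimate and lines for the 95% interval, for the 4 cluster members (above the dotted line) and 11 other activity-regulated miRNAs in falling order of level. Intervals of all 4 members include 0, and the estimates run from -0.40 for miR-212-5p to 0.25 for miR-212-3p.

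The intervals give a range for the genotype difference under the edgeR model with TMM scaling. That model fits a common dispersion to both genotypes, although KO libraries spread more than WT libraries. The SEs behind the intervals were derived from the estimate and its F statistic, so the bounds are approximate. For miR-132-5p and miR-132-3p the upper bound was 0.51 log2 units. The lower bounds were -0.08 for miR-132-5p and -0.45 for miR-132-3p. For the miR-212 arms the bounds were wider, at -1.16 to 0.36 for the 5p arm and -0.49 to 0.99 for the 3p arm. The median half-width over all tested miRNAs was 0.64, which lies between those of the miR-132 and the miR-212 arms.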

How the data were processed

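Per the labels' protocols, total RNA from cortices received adaptors at both ends, was amplified, gel-purified by size and sequenced as single-end reads. The submitters' processing notes name Bowtie, DESeq2 and mm10. The sources used here do not give trimming, mismatches, the handling of reads with several matches or the use of strand. The table deposited by the authors holds whole-number read counts per mature miRNA and TPM values, which equal reads divided by the column total and brought to a common sum, per the file headers and the values. Isoforms of a mature miRNA are not separated in these counts, and adaptor ligation is known to favour some sequences, so levels of different miRNAs compare reads, not molecules.

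Genotype came from each sample's label, and column names were matched to titles by number. Replicate numbers follow accession order and only name a library. No label says that each library is another animal, so p-values measure the spread between libraries. Counts were filtered with filterByExpr (minimum count 10), scaled by TMM and tested in edgeR 4.0.16 (R 4.3.3) with robust quasi-likelihood fits, adjusted over all 541 tested miRNAs. Arm ratios, log2((3p reads + 0.5)/(5p reads + 0.5)), were tested in limma 3.58.1 over 144 hairpins. The code of both steps was checked on simulated counts, with the same low dispersion in KO and WT and larger changes than those of the members. That setting differs from these data, where KO libraries spread more, so it does not show how well the tests detect changes here. Spread and likeness used log2(CPM + 0.5). Alternatives were no filter, other scalings, DESeq2 1.42.0, limma-voom, limma on log2(TPM + 1), other settings for arm ratios, and each library left out. Named miRNAs were the members, the 3 most alike and the neighbours in level of each, and the activity list, of which the 4 most abundant were to be named. Of these miR-381-3p, miR-191-5p, miR-182-5p and miR-138-5p are described. The members and lists were chosen with earlier results of these data known. Sequences are from RefSeq (GRCm38.p6), with all 4 members and both hairpins matched by name.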

Additional observations from a re-analysis of the deposited data

How the results depend on the processing

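No alternative brought a member or its arm ratio past the threshold of 0.05. Adjusted p-values over 13 alternatives ran from 0.296 to 0.999 for miR-132-3p, from 0.191 to 0.999 for miR-132-5p, from 0.386 to 0.999 for miR-212-3p and from 0.403 to 0.999 for miR-212-5p, and over 9 alternatives from 0.229 to 0.989 for the miR-132 and from 0.505 to 0.989 for the miR-212 arm ratio. The sign of miR-132-3p reversed under limma-voom (-0.0127) and limma on log2(TPM + 1) (-0.0322), and the cause was not tested. Without KO replicate 3 the sign reversed for miR-132-3p (-0.22), miR-212-3p (-0.24) and the miR-212 arm ratio (-0.17), and 18 of 560 miRNAs passed in edgeR, none of them a member. With each library left out in turn, the log2 fold change ranged from -0.22 to 0.14 for miR-132-3p, 0.15 to 0.26 for miR-132-5p, -0.24 to 0.45 for miR-212-3p and -0.72 to -0.07 for miR-212-5p, and the number of calls from 0 to 18. The arm ratio difference ranged from -0.49 to -0.06 for miR-132 and -0.17 to 1.14 for miR-212, with 0 calls each time. The miR-212 arm ratio difference was 1.16 with the 5p arm as offset in edgeR (adjusted p = 0.660). The mean log2 ratio of KO over WT ranged from -0.24 to 0.02 for miR-132-3p to miR-212-3p, 0.34 to 1.04 for miR-132-5p to miR-212-5p, and 0.08 to 0.13 for the summed level. For miR-132-3p to miR-212-3p it was -0.15 with all libraries, and its sign also reversed without KO replicate 3 (0.02). Without the miR-183 cluster, an alternative chosen after seeing the data, 4 of 8 other activity-regulated miRNAs were higher in KO, in place of 7 of 11. No paired analysis was possible because the labels give no replicate numbers, litter or batch. At 399 reads or more per member and library, counting error is small beside the spread between KO libraries.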
